A study of Mus musculus with 21 samples.

Results

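Coinhibitory receptors are surface molecules that restrain a T cell after antigen has been recognised. The 9 genes described here, Ctla4, Pdcd1, Lag3, Tigit, Havcr2, Cd160, Btla, Cd200 and Cd5, were chosen by name, and all 9 were found among the 47643 genes of the count table and the 15249 genes of the rlog table. They were followed in splenic CD4+ T cells, isolated by flow sorting from mice of the strain Tg4 Tiger Nr4a3-Tocky. These mice carry a transgenic T cell receptor (TCR) for a myelin basic protein (MBP) peptide, an Il10-GFP reporter and a fluorescent Timer protein driven by Nr4a3. Mice of all 7 groups carried these alleles. Control mice were untreated, and the others were injected under the skin with [4Y] peptide at a dose of 0.8 µg or 80 µg, with no adjuvant, and sampled after 4 h, 12 h or 24 h, with 3 mice per group. The Timer protein is blue when newly made and matures to red. Per the study's methods, the 4 h gate took blue cells that lacked red, the 12 h gate took cells with both colours, and the 24 h gate took cells that had lost blue and kept red. Gate and time therefore cannot be told apart in a comparison across times. The gate used for the control is not given in the sources used here.

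These receptors work in different ways. CTLA-4 competes with the activating receptor CD28 for CD80 and CD86 on antigen-presenting cells, whereas PD-1, the product of Pdcd1, recruits phosphatases that blunt signalling by the TCR and CD28 once PD-L1 or PD-L2 is bound. LAG-3 binds MHC class II, TIGIT competes with CD226 for the poliovirus receptor, TIM-3 (Havcr2) binds galectin-9, and CD160 and BTLA share the ligand HVEM. CD200 is itself a ligand that quiets cells bearing CD200R1, and CD5 is a scavenger-type receptor that sets the sensitivity of the TCR from the thymus onwards.

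The members are protein-coding genes on 6 chromosomes of GRCm38. Ctla4 lies on chromosome 1 (60887000 to 60915832, + strand) and Pdcd1 on the same chromosome (94038305 to 94052553, - strand). Cd160 lies on chromosome 3 (96798763 to 96829351, - strand), Lag3 on chromosome 6 (124904361 to 124911705, - strand), Havcr2 on chromosome 11 (46454935 to 46481255, + strand) and Cd5 on chromosome 19 (10717116 to 10739002, - strand). Chromosome 16 carries Tigit (43648867 to 43664146, - strand), Btla (45224315 to 45257670, + strand) and Cd200 (45382135 to 45409053, - strand). Pdzk1, on the other strand, shares exonic bases with Cd160. It had 9 counts in all libraries together, against 1254 for Cd160.

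The promoters of 4 members are shown because these genes answered dose in different ways: Ctla4 was higher with 80 µg, Cd160 with 0.8 µg, Cd5 differed at 12 h, and Pdcd1 was raised at both doses. Each window runs from 250 bases before to 50 bases after a RefSeq start on GRCm38.p6 and is written 5′ to 3′ on the gene's own strand. Capitals mark the NFAT core GGAAA or its reverse complement TTTCC, NFAT being the calcium-regulated factor that also drives the Nr4a3 Timer.
Ctla4, chr1:60908775-60909074, + strand: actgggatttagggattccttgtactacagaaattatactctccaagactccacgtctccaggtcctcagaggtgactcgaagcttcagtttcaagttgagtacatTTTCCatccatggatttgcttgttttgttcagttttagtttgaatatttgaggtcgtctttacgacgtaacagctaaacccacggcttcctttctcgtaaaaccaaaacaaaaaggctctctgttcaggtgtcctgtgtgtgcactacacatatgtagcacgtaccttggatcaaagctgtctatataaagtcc
Pdcd1, chr1:94052504-94052803, - strand: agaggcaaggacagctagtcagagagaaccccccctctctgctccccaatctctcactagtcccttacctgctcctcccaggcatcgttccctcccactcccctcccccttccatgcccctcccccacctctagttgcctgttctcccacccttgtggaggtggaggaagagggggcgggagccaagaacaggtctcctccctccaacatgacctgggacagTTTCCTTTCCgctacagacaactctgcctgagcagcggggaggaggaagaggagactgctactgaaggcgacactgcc
Cd160, chr3:96814472-96814771, - strand: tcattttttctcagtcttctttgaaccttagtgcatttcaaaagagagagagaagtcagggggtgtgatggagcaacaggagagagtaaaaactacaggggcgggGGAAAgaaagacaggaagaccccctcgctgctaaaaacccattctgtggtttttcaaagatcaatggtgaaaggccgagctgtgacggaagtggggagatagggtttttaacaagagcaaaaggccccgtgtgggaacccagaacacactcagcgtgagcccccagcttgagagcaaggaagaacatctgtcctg
Cd5, chr19:10738925-10739224, - strand: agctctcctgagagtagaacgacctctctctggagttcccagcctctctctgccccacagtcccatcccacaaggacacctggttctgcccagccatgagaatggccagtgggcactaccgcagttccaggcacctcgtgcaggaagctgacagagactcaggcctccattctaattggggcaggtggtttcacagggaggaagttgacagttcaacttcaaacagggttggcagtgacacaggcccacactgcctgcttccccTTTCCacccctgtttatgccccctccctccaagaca

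RefSeq promoter windows were matched for 8 of the 9 members, and Cd160 had 2 windows, of which the one shown holds the NFAT core and the other, chr3:96829302-96829601, holds none. The RefSeq window of Ctla4 and the Cd160 window shown lie inside the spans that GENCODE gives these genes. The other Cd160 window covers the 5′ end of the GENCODE span. Counted per window and read on both strands, the NFAT core GGAAA was present in 5 of the 9 member windows (those of Ctla4, Pdcd1, Tigit and Cd5 and 1 of Cd160), beside 61.3% of all 32851 promoter windows of this length. The RUNX motif TGTGGT was present in 5 windows (Tigit, Havcr2, Btla and both of Cd160) beside 16.8%, and the E-box CANNTG in 7 beside 72.3%. The AP-1 motif TGANTCA was found for Havcr2 alone, beside 7.81% of windows, and the NBRE AAAGGTCA, the element bound by Nr4a factors, in 0 member windows, beside 1.51%. In Tigit the RUNX match and an E-box match share letters. A match describes these letters only.

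Library totals ranged from 2352800 to 6244279 counts, with a median of 3571896. The T cell markers Cd3d, Cd3e, Cd3g, Cd4, Trbc1 and Trbc2 had counts in every group, with a sum of 3161 to 9411 normalised counts per library, lowest in the 80 µg group at 4 h. All 4 dendritic cell markers together stayed between 0 and 8.25 normalised counts per library and the 4 B cell markers between 4.86 and 183.5. The 5 myeloid markers summed to 1.71 to 117.2, highest in 80 µg at 24 h replicate 1. At 4 h their sums were 100.9, 105.4 and 15.1 with 0.8 µg and 18.5, 14.5 and 1.71 with 80 µg. The B cell sums at 4 h were 93.9, 55.3 and 38.9 with 0.8 µg and 37.0, 27.1 and 29.2 with 80 µg, apart in the direction of Cd160. They were also apart that way at 24 h, at 68.2, 41.0 and 72.3 against 39.5, 17.7 and 17.3, and overlapped at 12 h. The part of these cells in the dose differences was not tested. The single gene Gm42418 took 17.0% to 27.8% of the counts of a library, most in 80 µg at 24 h replicate 1, the library in which Cd160 was at 0 counts. Over all genes, replicate 3 of 0.8 µg at 12 h stood apart from its group (chi-square per degree of freedom 13.4 and 13.2 against the others, which had 3.28 between them), as did replicate 2 of 80 µg at 12 h (8.12 and 8.83, against 4.63). In these bulk samples, fewer cells that express a gene and less RNA per cell cannot be told apart.

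Dose was first examined at each time, in answer to the question of how far the strength of the antigen signal sets the level of each receptor. The 9 members did not move as a block. Ctla4 was far higher with 80 µg at 4 h and 12 h, Cd160 was lower with 80 µg at all 3 times, Cd5 was higher with 80 µg at 12 h, and Btla, Cd200 and Pdcd1 were not called in any dose comparison. At 4 h, 2 of the 6 members that could be judged were called, beside 5.85% of all genes tested. At 12 h, 3 of 6 were called beside 2.79%, and at 24 h 1 of 6 beside 1.56%. Lag3, Tigit and Havcr2 were too low to judge between doses at any time. Without replicate 3 of 0.8 µg or replicate 2 of 80 µg, the 2 libraries that stood apart, 3 members were called at 12 h each time, with Ctla4 at 2.08 and 2.46, Cd160 at -2.98 and -2.86 and Cd5 at 1.47 and 1.63. The study selected several of these receptors on the same libraries, so the counts are not independent evidence of a direction. The median shrunken log2 fold change of the 6 judged members was 0.45 at 4 h, 0.53 at 12 h and -0.11 at 24 h, beside -0.02, 0.01 and 0.02 over all genes tested.

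**Figure D1:**
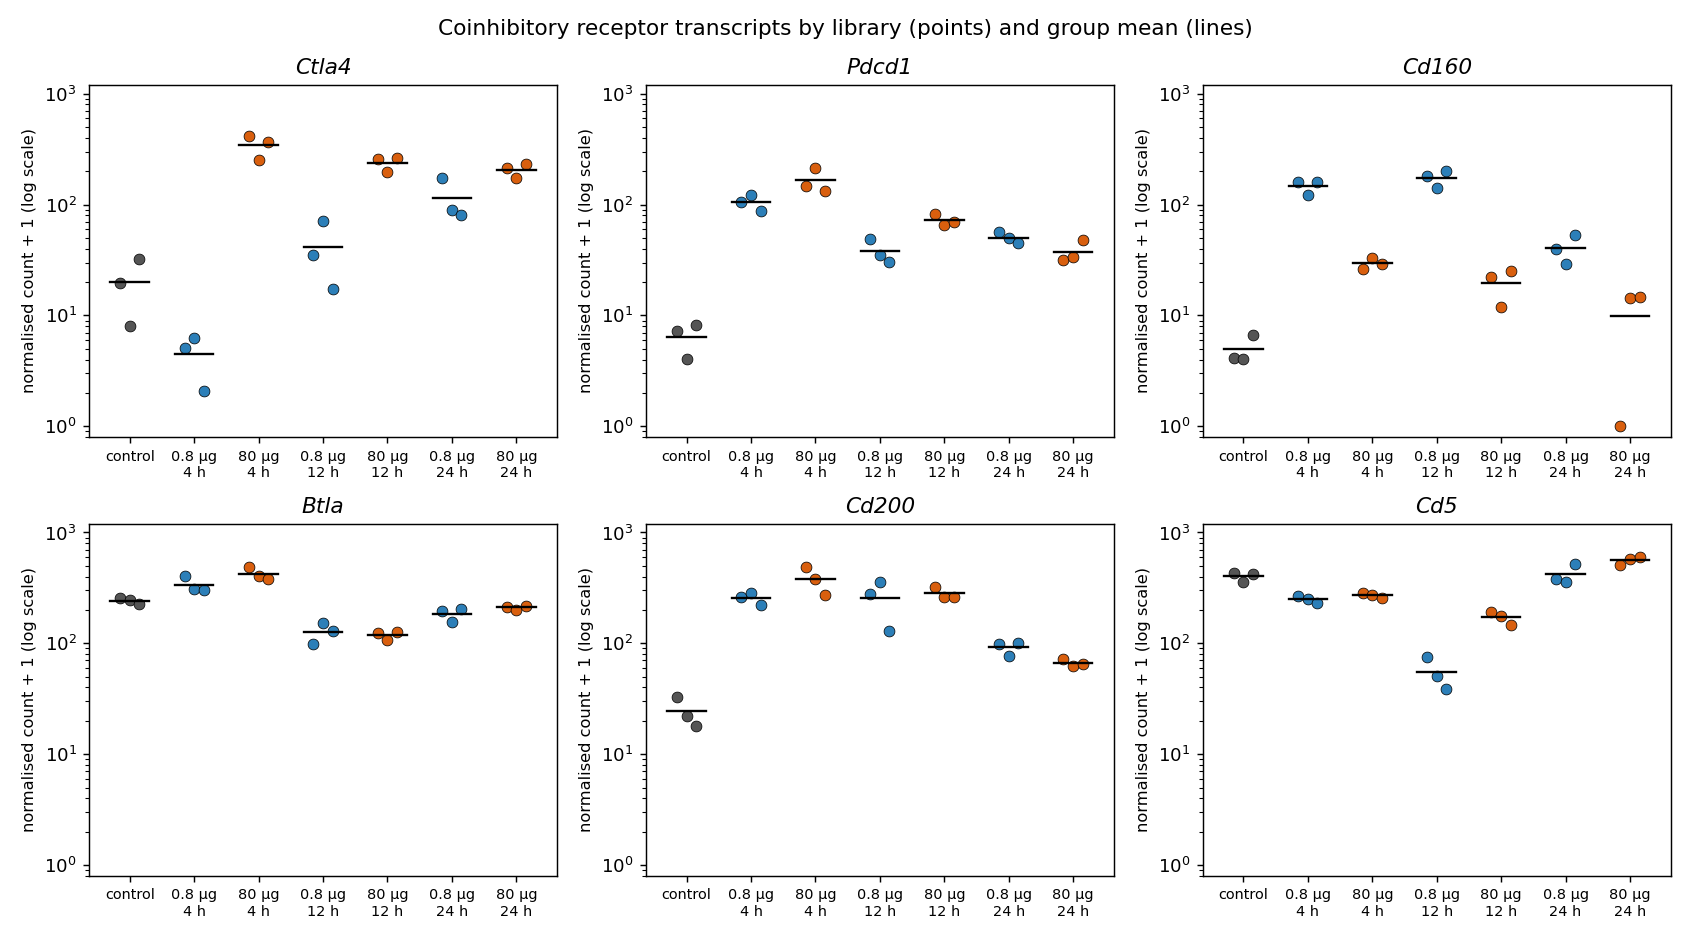
Normalised counts plus 1 (log axis) of 6 members in each library (points: grey, control; blue, 0.8 µg; orange, 80 µg) and the mean of each group of 3 (lines). Ctla4 and Cd160 separate the doses in opposite directions at 4 h and 12 h, while Btla and Cd200 follow time at both doses.

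Ctla4 had 18.6, 7.10 and 31.4 normalised counts in the 3 control libraries. At 4 h it had 4.04, 5.27 and 1.08 with 0.8 µg, from raw counts of 4, 4 and 1, and 416.7, 249.9 and 364.4 with 80 µg. No library of one dose came near the other. At 12 h it had 34.3, 70.7 and 16.4 with 0.8 µg and 255.8, 195.2 and 262.4 with 80 µg, and the groups were again apart. By 24 h it had 172.3, 88.6 and 79.5 with 0.8 µg and 211.5, 172.2 and 230.5 with 80 µg, and the ranges met, the highest low-dose library being level with the lowest high-dose library.

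The shrunken log2 fold change of Ctla4 with dose was 5.93 at 4 h (SE 0.55, adjusted p = 4.69e-21) and 2.397 at 12 h (SE 0.46, adjusted p = 1.38e-05). At 24 h it was 0.81 (SE 0.45, adjusted p = 0.363), with an interval of the unshrunken value from -0.08 to 1.78, which leaves room for no difference and for a difference of more than 1. Without replicate 1 of 0.8 µg at 24 h it was 1.23 (adjusted p = 0.14), still not called. The dose effect differed between times (adjusted p = 3.93e-12 in the likelihood ratio test). In log2 units the change of the dose effect was -4.13 from 4 h to 12 h (SE 0.83, adjusted p = 3.95e-05) and -5.81 from 4 h to 24 h (SE 0.82, adjusted p = 2.28e-10). The step from 12 h to 24 h, -1.68 (SE 0.68), had an adjusted p of 0.203, which was 0.0179 under edgeR and 0.000275 without replicate 2 of 0.8 µg at 12 h.

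With 0.8 µg, Ctla4 was below the control at 4 h and above it at 24 h. The gate of the control is not given, so dose and the cells sorted cannot be told apart here. Against the control its log2 fold change was -1.99 (SE 0.57, adjusted p = 0.00117) with 0.8 µg at 4 h, 1.04 (SE 0.49, adjusted p = 0.0561) at 12 h and 2.43 (SE 0.48, adjusted p = 3.62e-06) at 24 h. The 12 h value rested on single libraries: it ran from 0.48 (adjusted p = 0.359), without replicate 2 of its own group, to 1.46, without control replicate 3. It was called in the latter fit, at 1.43 without replicate 3 of its own group, at 1.25 under edgeR and at 1.05 among genes with at least 10 counts in 3 samples (adjusted p = 0.048). With 80 µg it was 3.95, 3.44 and 3.24 at 4 h, 12 h and 24 h, each called. Within the low dose it rose from 4 h to 12 h by 3.03 (SE 0.56, adjusted p = 1.22e-06) and again from 12 h to 24 h by 1.38 (SE 0.46, adjusted p = 0.00784). Leaving out replicate 1 of 0.8 µg at 24 h took the latter to 0.97, with an adjusted p of 0.0944. Within the high dose neither step was called, at -0.51 and -0.21.

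Regulatory T cells express Ctla4 without stimulation, so their markers are given beside it. Foxp3, their defining factor, had a mean of 38.9 normalised counts in the control, 3.92 with 0.8 µg and 17.8 with 80 µg at 4 h, 11.5 and 23.3 at 12 h, and 105.8 and 92.9 at 24 h. Between doses the Foxp3 mean was higher with 80 µg at 4 h and 12 h, as the Ctla4 mean was. Against the control, both means were lower with 0.8 µg at 4 h and higher at both doses at 24 h. At both doses at 12 h the Foxp3 mean was lower than in the control and the Ctla4 mean higher. The same held with 80 µg at 4 h, where the Ctla4 mean was 18.1 times that of the control. Ikzf2, which marks many regulatory T cells, had a mean of 196.2 in the control, 67.0 with 0.8 µg and 87.4 with 80 µg at 4 h, 395.8 and 121.1 at 12 h, and 1454 and 584.0 at 24 h. The sum of Foxp3, Ikzf2 and Il2ra ranged from 180.5 to 412.3 in control libraries, from 1080 to 1699 with 0.8 µg and 4217 to 4398 with 80 µg at 4 h, from 1141 to 1483 and 2031 to 2157 at 12 h, and from 1472 to 2390 and 908.8 to 1041 at 24 h. The doses were apart in the direction of Ctla4 at 4 h and 12 h and apart the other way at 24 h. At 4 h with 80 µg almost all of the sum was Il2ra, which activated T cells also make. The part of regulatory T cells in the Ctla4 values was not tested.

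Cd160 showed the opposite dose order. It had 3.09, 3.04 and 5.71 normalised counts in the control libraries, from 3, 3 and 4 raw counts. At 4 h it had 158.5, 119.9 and 157.5 with 0.8 µg and 25.5, 32.0 and 28.3 with 80 µg. At 12 h it had 178.4, 139.2 and 201.9 with 0.8 µg and 21.01, 11.01 and 24.3 with 80 µg. After 24 h the values were 38.9, 28.0 and 51.6 with 0.8 µg and 0, 13.3 and 13.6 with 80 µg. At each of the 3 times every low-dose library was above every high-dose library.

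The log2 fold change of Cd160 with dose was -2.29 at 4 h (SE 0.33, adjusted p = 3.07e-10), -3.14 at 12 h (SE 0.34, adjusted p = 2.30e-17) and -1.93 at 24 h (SE 0.38, adjusted p = 4.88e-05). As ratios of group means, the low dose was 5.09, 9.23 and 4.42 times the high dose. The call at 24 h was lost, at -0.38 (adjusted p = 0.352), when only the 2 groups compared were fitted. A difference of the dose effect between times was not shown (adjusted p = 0.22). Without replicate 1 of 80 µg at 24 h, the library with 0 counts, that adjusted p was 0.0275.

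Against the control, Cd160 rose with 0.8 µg by 4.88, 5.13 and 3.04 at 4 h, 12 h and 24 h, and with 80 µg by 2.60 at 4 h and 1.99 at 12 h, each called. With 80 µg at 24 h both means were under 10 normalised counts, at 8.94 and 3.95, and the comparison was too low to judge. The change from 12 h to 24 h was -2.09 with 0.8 µg (SE 0.32, adjusted p = 7.04e-10) and -0.87 with 80 µg (SE 0.40, adjusted p = 0.0599). The latter was called at -1.16 without replicate 2 of 80 µg at 12 h, at -1.09 without replicate 2 at 24 h and at -1.16 without replicate 3 at 24 h, and it was -0.42 (adjusted p = 0.386) without replicate 1 at 24 h.

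CD160 is best known from natural killer cells and CD8+ T cells, so their markers are given as well. Cd8a had a mean of 53.8 normalised counts with 0.8 µg at 12 h, against 3.84 with 80 µg at 12 h, 4.54 with 0.8 µg at 4 h and 6.72 in the control. Cd8b1 had means of 107.7 with 0.8 µg and 52.6 with 80 µg at 12 h, 76.0 and 76.5 at 4 h, and 125.2 in the control. At 24 h the Cd8a means were 14.3 with 0.8 µg and 1.76 with 80 µg. The 2 CD8 markers summed to 57.2 to 110.7 with 0.8 µg and 76.5 to 84.5 with 80 µg at 4 h, to 139.9 to 180.8 and 45.7 to 75.8 at 12 h, and to 119.7 to 152.9 and 81.1 to 113.3 at 24 h. The sums overlapped at 4 h and were higher with 0.8 µg without overlap, as Cd160 was, at 12 h and 24 h. The natural killer cell markers Ncr1, Klrb1c and Gzma summed to 1.08 to 6.06 in libraries of 0.8 µg at 4 h and to 5.14 to 18.5 with 80 µg, and Ncr1 was at 0 in both groups. Their sums were 12.0 to 17.7 and 8.75 to 23.5 at 12 h, and 45.4 to 61.5 and 20.8 to 64.7 at 24 h, with 0.8 µg and 80 µg, and overlapped at both times. The part of such cells in the Cd160 values was not tested.

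**Figure D2:**
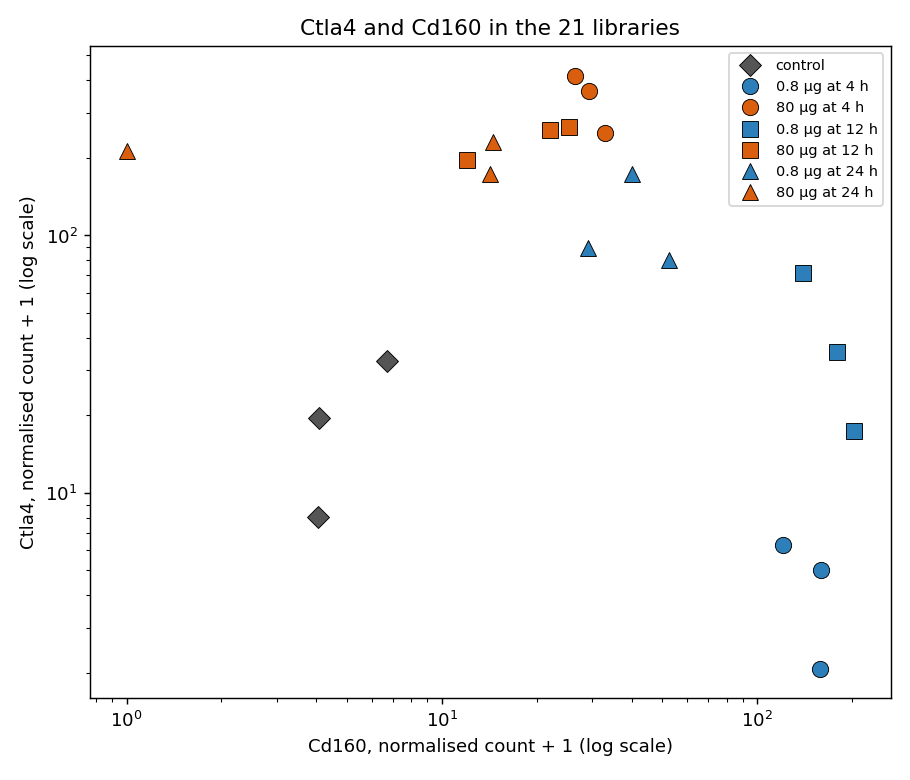
Ctla4 against Cd160, both as normalised counts plus 1 on log axes, in the 21 libraries (diamonds, control; circles, 4 h; squares, 12 h; triangles, 24 h; blue, 0.8 µg; orange, 80 µg). The 0.8 µg libraries of 4 h and 12 h lie at high Cd160 and low Ctla4 and the 80 µg libraries at high Ctla4 and low Cd160, with the control low in both.

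Pdcd1 was induced at both doses. It had 6.18, 3.04 and 7.14 normalised counts in the control. At 4 h it had 105.0, 121.2 and 86.3 with 0.8 µg and 145.8, 213.1 and 132.9 with 80 µg. At 12 h it had 48.0, 33.9 and 29.4 with 0.8 µg and 81.3, 64.6 and 68.0 with 80 µg. The doses did not overlap at these 2 times. The 24 h libraries had 55.5, 48.5 and 44.4 with 0.8 µg and 30.7, 32.4 and 46.8 with 80 µg, where they overlapped.

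All 6 immunised groups were called above the control for Pdcd1, by 4.03, 2.57 and 2.98 with 0.8 µg and by 4.68, 3.49 and 2.57 with 80 µg, at 4 h, 12 h and 24 h. Between doses the log2 fold change was 0.65 at 4 h (SE 0.25, adjusted p = 0.0712), or 0.41 (adjusted p = 0.437) without replicate 2 of 80 µg, and 0.92 at 12 h (SE 0.28, adjusted p = 0.0182). The latter passed the adjusted p and missed the fold threshold, which it passed, at 1.13, without replicate 1 of 0.8 µg. Without replicate 3 of 0.8 µg it was 0.795 and its adjusted p was 0.0952. Over the fits that left out 1 library this adjusted p reached 0.124. At 24 h it was -0.41 (SE 0.28, adjusted p = 0.508). The likelihood ratio test called a dose effect that differed between times (adjusted p = 0.0166), and the step from 12 h to 24 h was -1.35 (SE 0.40, adjusted p = 0.0322). Both calls were close to the threshold. The former was lost without replicate 1 of 0.8 µg or replicate 1 or 2 of 80 µg at 24 h (adjusted p up to 0.078), and the latter in 7 of 12 fits that left out 1 library (adjusted p up to 0.112), under edgeR (adjusted p = 0.0545) and without independent filtering (adjusted p = 0.0505). The change of its dose effect from 4 h to 24 h, -1.07 (SE 0.38, adjusted p = 0.0629), was not called. It was called among genes with at least 10 counts in 3 samples (adjusted p = 0.0478). It was also called in 3 of 12 fits that left out 1 library. From 4 h to 12 h Pdcd1 fell at both doses, by 1.46 with 0.8 µg (SE 0.27, adjusted p = 1.01e-06) and by 1.19 with 80 µg (SE 0.25, adjusted p = 1.48e-05). The high-dose value was under the fold threshold, at -0.94, without replicate 2 of 80 µg at 4 h. From 12 h to 24 h with 80 µg Pdcd1 missed the fold threshold, at -0.92 (SE 0.27, adjusted p = 0.00209), and it was called, at -1.14, without replicate 3 of 80 µg at 24 h.

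Cd5 went down and came back. It had 425.7, 355.9 and 421.1 normalised counts in the control, 266.5, 250.3 and 229.8 with 0.8 µg at 4 h and 282.4, 272.2 and 255.5 with 80 µg at 4 h. At 12 h it had 73.5, 49.6 and 37.6 with 0.8 µg and 191.8, 175.3 and 146.8 with 80 µg. By 24 h Cd5 had 381.6, 354.3 and 521.3 with 0.8 µg and 512.8, 571.1 and 593.5 with 80 µg. The 12 h groups were apart from each other and below every library of the other groups.

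Its dose effect was called at 12 h alone, at 1.65 (SE 0.19, adjusted p = 1.39e-15). It was 0.12 at 4 h (interval -0.20 to 0.44) and 0.42 at 24 h (interval 0.12 to 0.72, adjusted p = 0.0824). The dose effect differed between times (adjusted p = 1.56e-07), being larger at 12 h than at 4 h by 1.55 (SE 0.25, adjusted p = 7.16e-08), and the step from 12 h to 24 h was -1.25 (SE 0.24, adjusted p = 8.01e-05). Against the control at 12 h, Cd5 fell by 2.86 with 0.8 µg (SE 0.18, adjusted p = 3.87e-52) and by 1.22 with 80 µg (SE 0.16, adjusted p = 3.63e-13). From 4 h to 12 h with 0.8 µg it fell by 2.18 (SE 0.19, adjusted p = 4.46e-29). With 80 µg that step was -0.65 (SE 0.16, adjusted p = 0.000317), under the fold threshold. From 12 h to 24 h Cd5 rose by 2.93 with 0.8 µg and by 1.70 with 80 µg, and neither dose was called against the control at 24 h. With 80 µg at 24 h it passed the adjusted p and missed the fold threshold, at 0.48 (SE 0.15, adjusted p = 0.00639). Every library of that group was above every control library.

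**Figure D3:**
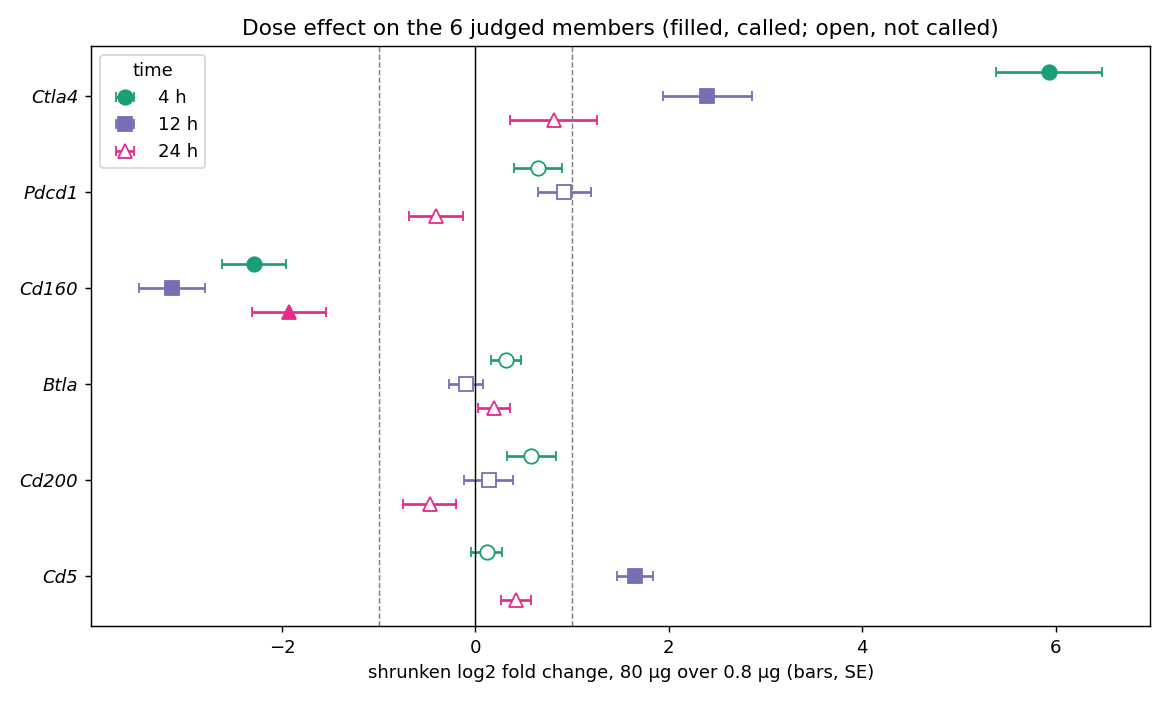
Shrunken log2 fold change of 80 µg over 0.8 µg for the 6 judged members at 4 h, 12 h and 24 h, with bars of 1 SE. Filled symbols were called and dashed lines mark the fold threshold of 1. The Ctla4 effect goes from 5.93 to 0.81, that of Cd160 lies at -1.93 or below at each time, and that of Cd5 stands out at 12 h.

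Cd200 was above the control at both doses and declined late. It had 32.0, 21.3 and 17.1 normalised counts in the control, 258.4, 283.2 and 219.1 with 0.8 µg at 4 h and 488.4, 381.6 and 271.8 with 80 µg at 4 h. At 12 h it had 276.4, 358.8 and 129.2 with 0.8 µg and 324.3, 262.7 and 259.5 with 80 µg. After 24 h Cd200 had 98.3, 76.5 and 100.1 with 0.8 µg and 71.2, 61.8 and 64.1 with 80 µg. The control was below every other group.

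All 6 immunised groups were called above the control for Cd200, by 3.32, 3.33 and 1.87 with 0.8 µg and by 3.89, 3.47 and 1.40 with 80 µg. Between doses its log2 fold change was 0.58 at 4 h (interval 0.08 to 1.09, adjusted p = 0.141), 0.14 at 12 h (interval -0.37 to 0.65) and -0.47 at 24 h (interval -1.03 to 0.06). From 12 h to 24 h it fell by 1.46 with 0.8 µg (SE 0.26, adjusted p = 2.00e-07) and by 2.07 with 80 µg (SE 0.26, adjusted p = 5.41e-14). The likelihood ratio test did not call a dose effect that differed between times (adjusted p = 0.122), though it did without replicate 3 of 80 µg at 4 h (adjusted p = 0.0497) or of 0.8 µg at 12 h (adjusted p = 0.0108). The change of the Cd200 dose effect from 4 h to 24 h, -1.07 (SE 0.38, adjusted p = 0.0629), was not called. It was called under edgeR (adjusted p = 0.0384) and among genes with at least 10 counts in 3 samples (adjusted p = 0.045). It was also called without replicate 3 of 80 µg at 4 h (adjusted p = 0.0234).

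Btla, whose ligand HVEM is shared with CD160, was present before antigen. It had 254.6, 242.4 and 227.0 normalised counts in the control, 406.8, 308.3 and 300 with 0.8 µg at 4 h and 483.8, 404.8 and 381.5 with 80 µg at 4 h. At 12 h it had 98.0, 151.9 and 128.0 with 0.8 µg and 123.3, 107.1 and 125.4 with 80 µg, and at 24 h 194.7, 154.8 and 201.3 and 212.6, 200.2 and 216.3. The 4 h libraries were all above the control and the 12 h libraries all below it.

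From 4 h to 12 h Btla fell by 1.41 with 0.8 µg (SE 0.17, adjusted p = 1.18e-15) and by 1.82 with 80 µg (SE 0.16, adjusted p = 1.02e-26). Against the control it was called only with 80 µg at 12 h, at -1.02 (SE 0.17, adjusted p = 8.13e-09), just past the fold threshold. That call was lost at -0.998 under edgeR, at -0.992 with TMM size factors, at -0.938 when only the 2 groups were fitted, at -0.986 without control replicate 1 and at -0.944 without replicate 2 of its own group. With 0.8 µg at 12 h the value was -0.93 (adjusted p = 2.35e-07), and it was called, at -1.09, without replicate 2 of that group. Between doses its log2 fold change was 0.32 at 4 h (interval 0.01 to 0.63), -0.10 at 12 h (interval -0.44 to 0.25) and 0.19 at 24 h (interval -0.13 to 0.52), so that a dose difference of 1 or more lies outside each interval.

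**Figure D4:**
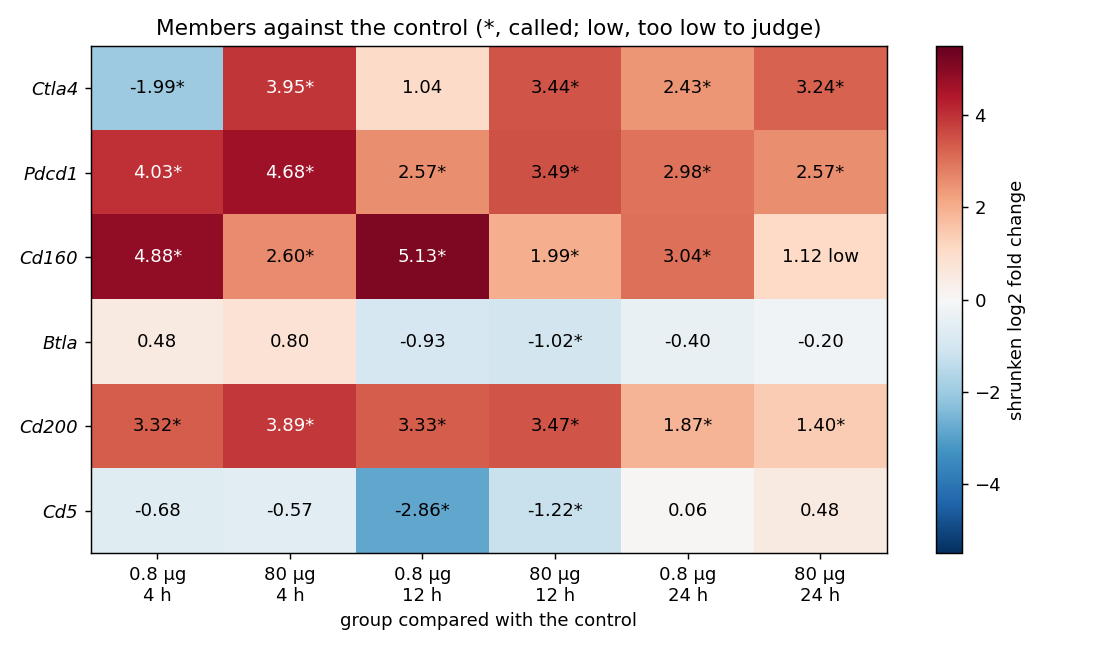
Shrunken log2 fold change of each immunised group against the control for 6 members, with the value in each cell. An asterisk marks a call and "low" a comparison too low to judge. Pdcd1 and Cd200 were called higher in all 6 groups, Ctla4 is the member with calls in both directions, and Cd5 and Btla have calls below the control at 12 h.

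Counted over the members, the comparisons with the control called 4 of 6 judged members with 0.8 µg at 4 h, beside 40.7% of all genes, 4 of 6 at 12 h beside 37.7% and 4 of 6 at 24 h beside 17.3%. With 80 µg they called 4 of 6 at 4 h beside 43.5%, 6 of 6 at 12 h beside 37.9% and 3 of 5 at 24 h beside 20.2%. These 6 comparisons share the control libraries. Lag3 is left out of every count here, since it could be judged only where its own highest group, 80 µg at 12 h, entered the comparison. Across times the calls were 4 of 6 from 4 h to 12 h with 0.8 µg beside 20.5%, 4 of 6 from 12 h to 24 h beside 26.6%, 2 of 6 from 4 h to 12 h with 80 µg beside 24.8%, and 2 of 6 from 12 h to 24 h beside 27.2%. The last count was 4 without replicate 3 of 80 µg at 24 h, with Pdcd1 and Cd160 gained. For the dose effect that differed between times, 3 of 6 members were called beside 10.4%. For the single steps, 2 of 6 were called from 4 h to 12 h beside 7.14%, 2 of 6 from 12 h to 24 h beside 2.64% and 1 of 6 from 4 h to 24 h beside 7.18%.

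The order of the 7 groups differed between the members. For Ctla4 the high-dose groups took the first 3 places, with overlapping neighbours, and 0.8 µg at 4 h came last, apart from the control. For Cd160 the low-dose groups took the first 3 places and the control came last, overlapping 80 µg at 24 h. For Pdcd1 the order began with 80 µg and 0.8 µg at 4 h, each apart from the next group, and ended with the control, while 0.8 µg at 24 h, 0.8 µg at 12 h and 80 µg at 24 h overlapped in turn. For Cd200 the 4 groups of 4 h and 12 h overlapped as neighbours and stood apart from those of 24 h. For Cd5 and Btla a 12 h group was lowest. The highest group mean was 99.3 times the lowest for Ctla4, 43.9 for Cd160, 30.1 for Pdcd1, 16.2 for Cd200, 10.4 for Cd5 and 3.57 for Btla.

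Lag3, Tigit and Havcr2 were near the counting floor. Lag3 had 0 raw counts in each control library, 2, 0 and 3 with 0.8 µg and 1, 3 and 1 with 80 µg at 4 h, 3, 8 and 3 with 0.8 µg and 14, 13 and 9 with 80 µg at 12 h, and 2, 0 and 1 with 0.8 µg and 3, 11 and 4 with 80 µg at 24 h. Normalised, the 80 µg group at 12 h had 12.8, 9.54 and 8.75, and no library of another group reached its lowest value. Set against the floor of 3 counts per library in the control, its mean of 10.4 was at least 2.98-fold higher. This mean was just over the cut of 10 and every other group mean of Lag3 was under 5, so Lag3 could be judged only in comparisons that contain the group where it was high, and its calls there are a description. They were a call against the control and one from 4 h to 12 h with 80 µg, and the latter was lost in 5 of the 6 fits that left out 1 library (all but replicate 2 of 80 µg at 4 h). Between doses at 12 h DESeq2 gave no adjusted p for Lag3, and the interval of the unshrunken log2 fold change ran from -0.56 to 3.15. With 0.8 µg at 12 h and 80 µg at 24 h the thresholds were passed against the control, at adjusted p of 0.00852 and 0.0087, but all means were under 10, and these were not counted.

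Tigit had 0 raw counts in every library of the control and of 0.8 µg at 4 h and 12 h. With 80 µg it had 7, 0 and 0 at 4 h, 8, 11 and 13 at 12 h and 2, 0 and 2 at 24 h, and with 0.8 µg 0, 5 and 1 at 24 h. The mean of 9.34 normalised counts with 80 µg at 12 h was at least 3.21-fold higher than the floor of the 0.8 µg group and at least 2.69-fold higher than that of the control. Since no group mean reached 10, Tigit was too low to judge in each of the 13 comparisons, although its adjusted p against the control at 12 h was 0.0217. Regulatory T cells also express Tigit, and the Foxp3 mean at 12 h was 23.3 with 80 µg, against 11.5 with 0.8 µg and 38.9 in the control. Their part in the Tigit values was not tested. Havcr2 did not exceed 8 raw counts in any library, 9 of the 21 libraries had 0, and its 35 counts in all came from every group, so nothing could be judged at this depth.

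**Figure D5:**
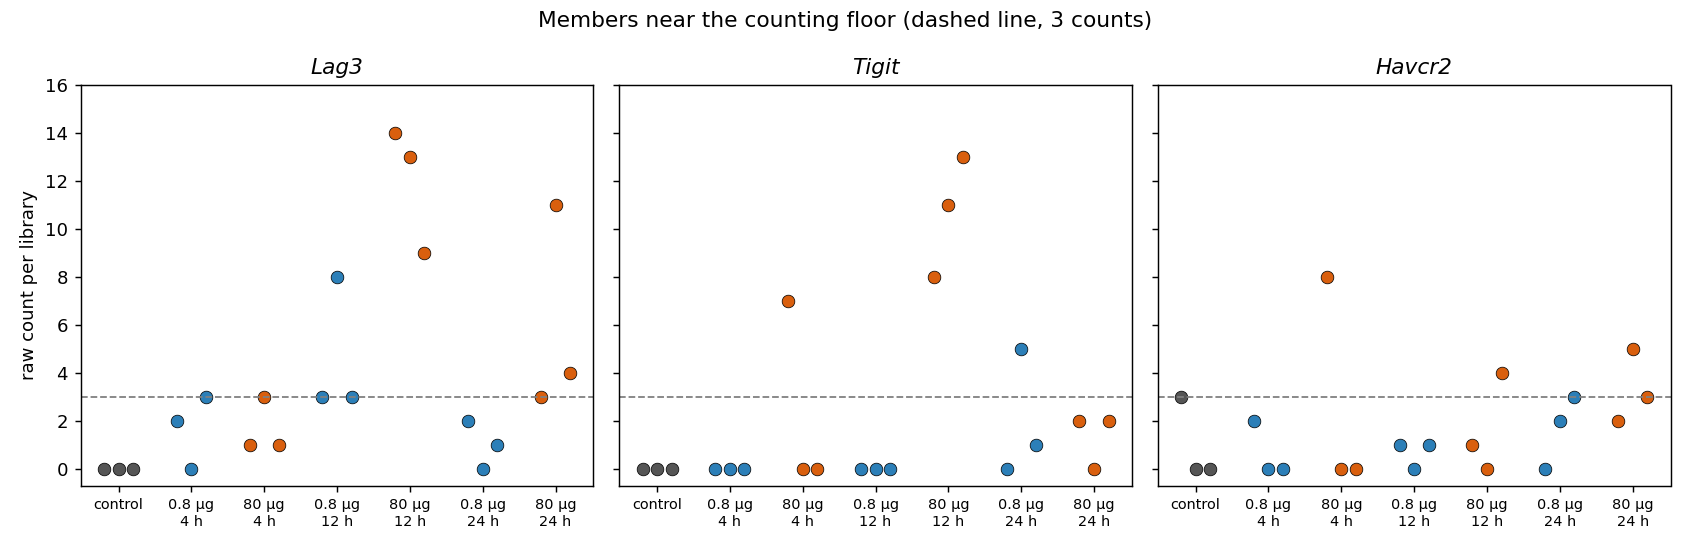
Raw counts of Lag3, Tigit and Havcr2 in each library (grey, control; blue, 0.8 µg; orange, 80 µg), with the floor of 3 counts as a dashed line. The 80 µg libraries of 12 h hold 9 to 14 counts of Lag3 and 8 to 13 of Tigit, while 13 libraries have 0 counts of Tigit.

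Across the 21 libraries, the deposited rlog values of the 6 well-counted members followed one another in few pairs. These libraries share group structure and normalisation, so the correlations are descriptions. Pdcd1 and Cd200 were the most alike (Pearson r 0.86, Spearman rho 0.77), followed by Cd160 and Cd200 (0.60 and 0.52). Cd160 and Cd5 went opposite ways (-0.65 and -0.57), as did Cd200 and Cd5 (-0.53 and -0.66) and Ctla4 and Cd160 (-0.40 and -0.34). Among 8747 other genes, those with the pattern most like Ctla4 were Icos (r 0.93), a costimulatory receptor of the same gene family, and Gm14005 (0.88). Nearest to Cd160 were Eomes (0.92), a T-box factor of cytotoxic lymphocytes, and Lad1 (0.90). Nearest to Pdcd1 were Nacc1 and Suv39h2 (both 0.95), to Cd200 Api5 (0.97) and Hk2 (0.96), a hexokinase that starts glycolysis, to Btla Tbc1d15 and Traf1 (both 0.94), and to Cd5 H2-T23 and Gm8369 (both 0.91). Lag3, Tigit and Havcr2 were too near the floor for such a ranking.

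A list of 4 activating receptors or coreceptors that share a ligand with a member or are built like one, and of the HVEM ligand Tnfsf14 (LIGHT), showed both dose orders. Icos had 1435, 1108 and 1246 normalised counts with 80 µg at 4 h and 253.4, 335.9 and 188.8 with 0.8 µg, a log2 fold change of 2.27 (SE 0.18, adjusted p = 5.99e-32), and 1.76 at 12 h. Cd226, which competes with TIGIT for its ligand, was lower with 80 µg by -1.61 at 4 h (SE 0.22, adjusted p = 1.28e-11) and -2.56 at 12 h (SE 0.21, adjusted p = 1.81e-29), the direction of Cd160. Cd4, whose ligand MHC class II is also that of LAG-3, was lower by -1.93 at 4 h. Tnfsf14 was lower by -1.31 at 12 h. Of these 5 genes, 3 were called at 4 h beside 5.85% of all genes, 3 at 12 h beside 2.79% and 0 at 24 h beside 1.56%. Cd28, the rival of CTLA-4, had log2 fold changes of -0.60, 0.88 and 0.47, under the fold threshold each time.

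Among the 6 to 7 ligands and counter-receptors that could be judged against the control, Cd274 (PD-L1) and Pdcd1lg2 (PD-L2) were measured in the same T cells. Cd274 had 29.9, 25.4 and 45.7 normalised counts in the control, 610.7, 579.6 and 620.5 with 0.8 µg at 4 h and 259.3, 258.6 and 208.3 with 80 µg at 4 h. It was the only gene of this list called between doses, at -1.31 at 4 h (SE 0.16, adjusted p = 2.44e-14), with 4 genes judged, beside 5.85% of all genes called. With 4 genes judged at 12 h and 5 at 24 h, 0 were called, beside 2.79% and 1.56%. Pdcd1lg2 was called above the control in all 6 groups, by 1.99 to 4.22. Cd80, Nectin2 and Fgl1 did not pass the count filter, and Nectin3 and Tnfrsf14 stayed under 10 normalised counts in every group.

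Of the 15 other inhibitory receptors on the list, 14 passed the filter and 4 of these (Cd244a, Klrc1, Ceacam1 and Cd300a) stayed under 10 in every group. Against the control, 6 of 9 judged genes fell and 1, Vsir, rose with 0.8 µg at 4 h, and 7 fell and 1, again Vsir, rose with 80 µg, beside 40.7% and 43.5% of all genes called in either direction. At 12 h 9 of 9 fell with 0.8 µg and 6 of 9 with 80 µg, and 0 rose, beside 37.7% and 37.9%. The B cell markers summed to 81.4 to 183.5 in control libraries. Their sums were 38.9 to 93.9 with 0.8 µg and 27.1 to 37.0 with 80 µg at 4 h, and 17.6 to 102.9 and 4.86 to 42.0 at 12 h. They were thus below the control without overlap with 80 µg and overlapped it with 0.8 µg. The natural killer cell markers summed to 8.25 to 18.6 in control libraries. Their sums were below the control without overlap with 0.8 µg at 4 h, at 1.08 to 6.06, and overlapped it in the other groups of 4 h and 12 h. The part of B cells or natural killer cells in these falls was not tested. The list's median log2 fold change was -3.13 and -3.39 at 4 h and -1.83 and -1.85 at 12 h, with 0.8 µg and 80 µg, whereas the members' was 1.90 and 3.24 at 4 h and 1.81 and 2.71 at 12 h, Lag3 left out. Over all genes tested it was -0.13 and -0.15 at 4 h and -0.11 and -0.11 at 12 h. Between doses 0 of this list were called at 4 h and 12 h, beside 5.85% and 2.79% of all genes. At 24 h 2 of 8 judged were called, beside 1.56%. These were Lair1, a collagen receptor, at 1.94 (SE 0.43, adjusted p = 0.00062) and Klrd1, a subunit of NK cell lectin receptors, at 1.89 (SE 0.47, adjusted p = 0.00409).

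Of a list of 21 intracellular inhibitors of TCR signalling, not all of them tied to inhibitory receptors, 19 were judged between doses at 4 h. Of these, 4 were called, beside 5.85% of all genes, and all 4 were lower with 80 µg. These were Ptpn6 (SHP-1), a phosphatase recruited by several of the members, at -1.91 (SE 0.13, adjusted p = 3.91e-44), the diacylglycerol kinases Dgka at -1.52 and Dgkz at -1.32, and Ubash3a at -1.67. At 12 h and 24 h 0 of 21 were called, beside 2.79% and 1.56% of all genes. The list's median was 0.01, -0.01 and 0.19 at 4 h, 12 h and 24 h. In the 80 µg group at 4 h, Ctla4 and Pdcd1 were thus at their highest means in the same libraries in which Ptpn6 was at its lowest, 232.0 normalised counts on average against 708.1 in the control.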

How the data were processed

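RNA was measured by 3′ mRNA sequencing in flow-sorted CD4+ T cells of 21 mice, 3 in each of 7 groups. The authors trimmed reads with Bbduk, aligned them to GRCm38 (mm10) with STAR 2.5.2a and deposited HTSeq-count raw counts per gene. The authors also deposited rlog values, on a log2 scale, from DESeq2. Which annotation release was used, whether counting used strand, and whether reads carried molecular identifiers is not given in the sources used here. A read count without identifiers is not a count of independent molecules, so floors cover counting error only.

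The 9 members were matched by symbol in the rlog table and by identifier in the count table. The members and the gene lists were chosen with earlier results of these data known, and the study itself selected several members from these libraries. Of 47643 genes, the 15300 with at least 10 counts over all samples were fitted with DESeq2 1.42.0 in R 4.3.3, with 1 coefficient per group over all 21 libraries. Shrinkage used the normal prior of DESeq2. Genes were called at a Benjamini-Hochberg adjusted p under 0.05, over all genes tested, and an absolute shrunken log2 fold change above 1. There were 13 comparisons. A likelihood ratio test on the immunised libraries asked whether the dose effect differed between times, and differences of the dose effect between times were tested with unshrunken values. Normalised counts are counts divided by the size factors of DESeq2. Intervals for uncalled differences are 95% Wald intervals of the unshrunken value. A member was too low to judge in a comparison when both group means were under 10 normalised counts or no adjusted p was given. The floor was 3 counts per library.

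Named genes were the 9 members, the 2 other genes nearest to each member by Pearson correlation of the deposited rlog values (for members with a group mean of 10 or more, Lag3 later left out, among genes with a mean of 20 or more), from each list up to 4 genes called in most dose comparisons, those needed to state a count of 5 or fewer, and genes whose exons overlap a member. Gene positions (1-based) come from GENCODE vM21 for GRCm38, and promoters from RefSeq on GRCm38.p6. Alternatives were edgeR 4.0.16 with TMM scaling, DESeq2 with TMM size factors, other filters, no independent filtering, no removal by Cook's distance, no shrinkage, the adjusted p alone, log2(CPM + 1) in place of rlog, fits of only the 2 groups compared, a replicate block, and each library left out. The fits were tested on simulated data. No 2 libraries of a group agreed within sampling noise. No source says that a replicate number marks a shared batch or day, and the p-values measure the spread between mice of 1 group.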

Additional observations from a re-analysis of the deposited data

Results flagged for a closer look

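The dose effect of 3 of the 6 judged members differed between times in the likelihood ratio test of DESeq2, beside 10.4% of all genes tested. For Ctla4 the log2 dose effect spanned 5.12 over 4 h, 12 h and 24 h (adjusted p = 3.93e-12), for Cd5 1.53 (adjusted p = 1.56e-07) and for Pdcd1 1.33 (adjusted p = 0.0166). The Pdcd1 call was lost in 3 of 18 fits that left out 1 library (adjusted p up to 0.078). The sorting gate changed with time, so the 2 cannot be told apart. With groups of 3 libraries, single outlying libraries were not flagged for a member. Over all genes, replicate 3 of 0.8 µg and replicate 2 of 80 µg at 12 h stood apart, as given above, and each library was left out in turn.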

How the results depend on the processing

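Of 45 called pairwise comparisons of single members, Lag3 included, 5 changed in any fit run. Over those 45, 446 of 450 fits under another setting and 261 of 270 that left out 1 library kept both. Of 35 that were judged and not called, 18 changed in some fit, with 334 of 350 and 195 of 210 fits the same. With only the 2 groups compared, the dose comparison at 24 h had 0 members called, Cd160 being lost. With the adjusted p alone, 4 members were called from 12 h to 24 h with 80 µg. For the dose effect at 24 h minus 12 h, 1 member was called without independent filtering and 1 with the replicate block, Pdcd1 being lost (adjusted p = 0.0678 with the block). Under edgeR the count stayed at 2, with Pdcd1 lost (adjusted p = 0.0545) and Ctla4 gained. For 24 h minus 4 h, 2 were called by edgeR and 2 with the replicate block, Cd200 being gained in each. Among genes with at least 10 counts in 3 samples 3 were called, with Pdcd1 and Cd200 gained. Same-numbered mice did not deviate together (median r -0.011, against -0.006 for different numbers), so the block is given here only. The cause of these changes was not tested.

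Leaving out 1 library gave 2 to 4 members for 80 µg from 12 h to 24 h, 1 to 2 for the dose effect at 24 h minus 12 h and 1 to 3 at 24 h minus 4 h. From 4 h to 12 h with 80 µg each such fit called 2 members in place of 3, Lag3 included. Without replicate 2 of 80 µg at 4 h the Pdcd1 value there was -0.94. Uncalled values near 0 changed sign. Over the fits that left out 1 library, the dose effect at 12 h ran from -0.252 to 0.067 for Btla (positive without 0.8 µg replicate 2) and from -0.166 to 0.468 for Cd200 (negative without 0.8 µg replicate 3). Cd5 with 0.8 µg at 24 h against the control ran from -0.121 to 0.169 (negative without control replicate 2 or replicate 3 of its own group). Cd200 with 0.8 µg from 4 h to 12 h ran from -0.318 to 0.321 (negative without replicate 3 of 4 h or replicate 1 or 2 of 12 h) and was -0.006 with the replicate block. The Cd160 dose effect at 24 h minus 4 h ran from -0.049 to 0.794 (negative without replicate 3 of 80 µg at 24 h). At 2352800 to 6244279 counts per library, Tigit and Havcr2 could not be judged, and Lag3 could be judged in 3 pairwise comparisons.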

Other observations

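Eomes, the gene whose pattern was most like that of Cd160, had 2.06, 9.13 and 1.43 normalised counts in the control. With 0.8 µg it had 271.5, 92.2 and 172.7 at 4 h and 325.5, 323.4 and 265.3 at 12 h, and with 80 µg 82.2, 66.8 and 42.9 and 43.9, 28.6 and 49.6. The low-dose libraries were above the high-dose libraries at both times. At 24 h it had 33.1, 30.8 and 53.7 with 0.8 µg and 7.67, 7.36 and 4.31 with 80 µg. Eomes was picked for its likeness to Cd160 in these same libraries, so the shared dose order is a description only.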
